A study of Saccharomyces cerevisiae with 13 samples.

Results

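The genes described here are the 32 budding yeast genes of methionine and sulfur metabolism, taken by a fixed list of identifiers from 6205 gene rows of the deposited table. They are 2 sulfate permeases, 8 genes of sulfate reduction, 4 of methionine synthesis, 4 of the exchange between homocysteine and cysteine, 5 of the S-adenosylmethionine cycle, 4 permeases for methionine and its derivatives, and 5 regulators. The list was drawn up with earlier results of these arrays known, although its rule uses no measured value. All 32 had values on at least 10 of 13 arrays and were tested, among 6151 genes in all, and 3 single values of SUL1, SUL2 and MHT1 were missing. The cells were of the W303 background and are labelled as mutant in both YOX1 and YHP1, related homeodomain repressors. The mating pheromone alpha factor arrested them in G1, and they were then released into the rich medium YEPD and sampled every 10 min from 0 to 120 min, with 1 two-colour array per time point and no replicates. Cy5 marked each time point. Cy3 marked a wild-type culture, asynchronous and grown overnight in YEPD to an OD of 0.6, so a log ratio above 0 is a higher level in the cells labelled yox1 yhp1. Genotype, synchrony, culture treatment and dye cannot be told apart in a difference from this culture. Every array sets arrested or released cells labelled yox1 yhp1 in Cy5 against the untreated asynchronous wild type in Cy3.

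Yeast takes up sulfate, activates it with ATP, reduces it through sulfite to sulfide, and joins sulfide to a carbon chain made from homoserine to give homocysteine. Homocysteine is methylated to methionine or passed to cysteine, and methionine becomes S-adenosylmethionine, the methyl donor of the cell. The pathway is known for its control by the activator Met4, which is brought to promoters by Cbf1, Met28, Met31 and Met32 and is switched off when sulfur compounds are plentiful by the ubiquitin ligase subunit Met30.

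The deposited values are log ratios read as log10, a base inferred from 18 values that sit at a size of exactly 2, so every fold below rests on that reading. Between 6062 and 6176 genes had a value on each array. Precision is limited by how many arrays there are, and p-values measure the scatter of arrays of a single culture around a curve, not the spread between cultures. YHP1 was below the reference on 13 of 13 arrays, between -0.50 and -0.12 (mean log10 ratio -0.28 ± 0.021, SE, adjusted p = 8.63e-08, limma). YOX1 was between -0.53 and 0.12 and above the reference on 3 arrays. Neither gene was evenly low, so these ratios do not settle the mutant label. Of the mating-type markers, all 5 a-specific genes were highest at 0 min, from 0.17 for MFA2 to 0.69 for BAR1, and the 3 alpha-specific genes lay between -0.18 and 0.12. The mean of 31 measured G1/S genes was highest at 20 min (0.33) and again at 80 min (0.17).

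**Figure D1:**
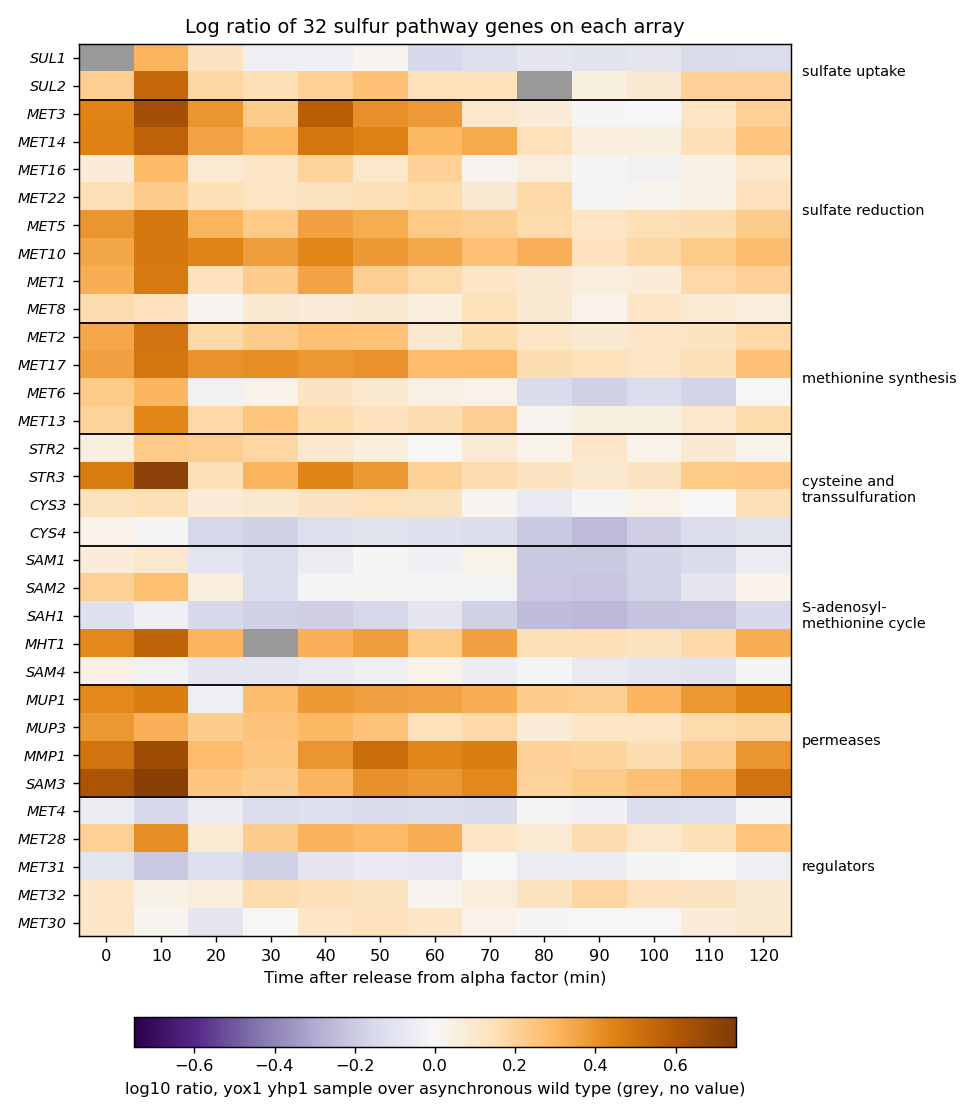
Log10 ratio of each of the 32 genes (rows, grouped by pathway step) at each time after release (columns, min), from the cells labelled yox1 yhp1 over the asynchronous wild type, with grey for a missing value. The column at 10 min holds the highest values of 24 of the 32 genes (75%, against 13% of all genes). That at 0 min holds those of 4 (12.5%, against 11.4%). The column at 90 min holds the lowest values of 13 (40.6%, against 4.29%), and the rows of MET4 and MET31 lie below 0 throughout.

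The first comparison set the mean over the course against the asynchronous wild type. Of the 32 genes, 15 (46.9%) were higher by at least 1.5-fold with an adjusted p under 0.05 (limma, Benjamini-Hochberg over all genes), against 2.63% of all genes tested, and 0 were lower by that rule, against 4.19%. The 15 came from every step: SUL2, then MET3, MET14, MET5, MET10 and MET1 of sulfate reduction, MET2 and MET17, STR3, MHT1, all 4 permeases and the regulator MET28. The median of the 32 mean log10 ratios was 0.14, against 0.0028 over all genes. By the adjusted p alone 23 were higher and 6 lower, but this rule also called 33.5% of all genes higher and 31.8% lower, so the lower share among the sulfur genes (18.8%) was below the background.

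In sulfate uptake, of the high-affinity permease genes SUL1 (YBR294W) and SUL2 (YLR092W), SUL2 alone was higher by the rule. SUL2 lay between 0.051 and 0.54 on its 12 arrays, with a fitted mean of 0.19 ± 0.028 (SE) or 1.56-fold. SUL1 was above the reference only at 10, 20 and 50 min and reached 0.31 at 10 min. Its fitted mean was -0.023 ± 0.024, which did not pass the test. A fitted mean can differ from the plain average where a value is missing. Without the 10 min array the mean of SUL2 was 0.16 and no longer reached 1.5-fold. Without the 0 and 10 min arrays SUL2, MET1 (YKR069W) and MET2 (YNL277W) were all under 1.5-fold, with means of 0.15, 0.16 and 0.16.

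Sulfate reduction begins with MET3 (YJR010W), ATP sulfurylase. From 0 to 120 min its log10 ratio was 0.45, 0.64, 0.39, 0.22, 0.57, 0.41, 0.38, 0.09, 0.07, -0.0082, -0.0004, 0.11 and 0.21. Its values formed an early maximum at 10 min, another at 40 min, and a stretch near the reference from 70 to 110 min. MET14 (YKL001C), the kinase that phosphorylates the activated sulfate, read 0.45, 0.56, 0.36, 0.29, 0.49, 0.46, 0.30, 0.34, 0.14, 0.06, 0.05, 0.14 and 0.25 over the same times, above the reference on 13 of 13 arrays with the same pair of maxima. The sulfite reductase subunit gene MET5 (YJR137C) gave 0.40, 0.49, 0.31, 0.23, 0.36, 0.33, 0.23, 0.22, 0.17, 0.11, 0.15, 0.16 and 0.23. For MET10 (YFR030W), the other subunit of that enzyme, the values were 0.35, 0.48, 0.44, 0.37, 0.44, 0.39, 0.34, 0.26, 0.32, 0.13, 0.18, 0.23 and 0.28. Both subunit genes were above the reference on every array and lowest at 90 min. Means over the course were 0.32 ± 0.018 for MET10 (SE, n = 13 arrays, 2.11-fold, adjusted p = 4.63e-09), 0.30 ± 0.021 for MET14 (1.99-fold), 0.27 ± 0.029 for MET3 (1.87-fold) and 0.26 ± 0.015 for MET5 (1.81-fold).

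The other members of this step were closer to the reference. MET1, which makes the siroheme cofactor of sulfite reductase, ranged from 0.060 to 0.47 with a mean of 0.20 ± 0.022 (1.58-fold). MET8 (YBR213W), the next enzyme of siroheme synthesis, stayed between 0.013 and 0.16. MET16 (YPR167C), the reductase that yields sulfite, was between -0.029 and 0.29, and MET22 (YOL064C), a phosphatase that removes the nucleotide by-product of that reaction, between -0.021 and 0.22. The means of MET8 (0.085), MET16 (0.094) and MET22 (0.12) passed the adjusted p but not the fold minimum.

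In methionine synthesis, MET17 (YLR303W) had the highest mean ratio. It encodes O-acetylhomoserine sulfhydrylase, which joins sulfide to the carbon chain, and its log10 ratios from 0 to 120 min were 0.37, 0.49, 0.40, 0.41, 0.39, 0.40, 0.29, 0.28, 0.16, 0.14, 0.11, 0.14 and 0.27. These values formed a plateau near 0.4 up to 50 min and about 0.1 to 0.3 from 60 min on. MET2, homoserine O-acetyltransferase, which supplies that chain, gave 0.34, 0.50, 0.17, 0.23, 0.27, 0.26, 0.09, 0.17, 0.11, 0.08, 0.11, 0.12 and 0.17. MET6 (YER091C), the methionine synthase, gave 0.23, 0.30, -0.03, 0.03, 0.12, 0.09, 0.04, 0.02, -0.14, -0.18, -0.13, -0.17 and 0.0016. MET6 thus crossed the reference, above it on 8 of 13 arrays and below it at 20 min and from 80 to 110 min. The mean of MET17 was 0.30 ± 0.018 (1.98-fold), that of MET2 0.20 ± 0.021 (1.59-fold) and that of MET6 0.015 ± 0.018 (adjusted p = 0.474). MET13 (YGL125W), methylenetetrahydrofolate reductase, which provides the methyl group, lay between 0.014 and 0.44 with a mean of 0.16 ± 0.021, under the fold minimum.

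The cysteine branch was split. STR3 (YGL184C), cystathionine beta-lyase, which leads from cysteine to homocysteine, ranged from 0.088 to 0.71 with its highest value at 10 min and averaged 0.28 ± 0.031 (1.90-fold). CYS4 (YGR155W), cystathionine beta-synthase, which runs the opposite way, read 0.03, -0.01, -0.16, -0.17, -0.12, -0.10, -0.11, -0.13, -0.20, -0.25, -0.18, -0.13 and -0.10 from 0 to 120 min. It was above the reference at 0 min alone and averaged -0.13 ± 0.0099, 1.34-fold lower (adjusted p = 1.05e-07), short of the fold minimum. STR2 (YJR130C), cystathionine gamma-synthase, lay between 0.0041 and 0.23, and CYS3 (YAL012W), cystathionine gamma-lyase, between -0.070 and 0.15.

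Genes of the S-adenosylmethionine cycle were mostly at or below the reference, MHT1 (YLL062C) being the exception. SAM1 (YLR180W) and SAM2 (YDR502C) encode the paralogous S-adenosylmethionine synthetases. SAM1 gave 0.07, 0.10, -0.10, -0.13, -0.05, 0.0072, -0.03, 0.03, -0.20, -0.20, -0.17, -0.14 and -0.06. SAM2 gave 0.21, 0.27, 0.06, -0.13, -0.02, 0.0060, -0.02, -0.02, -0.21, -0.21, -0.17, -0.09 and 0.03. Both were above the reference at 0 and 10 min and at their lowest at 80 and 90 min. Whether the spots of such similar genes hybridise to each other's RNA was not tested. MHT1, the S-methylmethionine:homocysteine methyltransferase, read 0.43, 0.55, 0.30, no value, 0.32, 0.37, 0.23, 0.36, 0.15, 0.14, 0.12, 0.17 and 0.32, so it was above the reference on all 12 arrays with a value (mean 0.29 ± 0.021, 1.94-fold). SAH1 (YER043C), which hydrolyses S-adenosylhomocysteine, was below the reference on 13 of 13 arrays, between -0.26 and -0.040, with a mean of -0.17 ± 0.011 (1.47-fold lower). SAM4 (YPL273W), the methyltransferase that uses S-adenosylmethionine, stayed between -0.10 and 0.045.

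All 4 permease genes were higher by at least 1.5-fold, and SAM3 (YPL274W) and MMP1 (YLL061W) had the highest means of the 32. SAM3, the S-adenosylmethionine permease, had log10 ratios of 0.62, 0.72, 0.24, 0.22, 0.30, 0.41, 0.39, 0.43, 0.20, 0.23, 0.27, 0.33 and 0.49. MMP1, the S-methylmethionine permease, had 0.50, 0.66, 0.28, 0.24, 0.40, 0.52, 0.43, 0.47, 0.20, 0.19, 0.15, 0.23 and 0.40. Both were above 0.4 at 0 and 10 min, between 0.1 and 0.3 at 80 to 100 min, and above the reference on every array. MUP1 (YGR055W), the high-affinity methionine permease, gave 0.43, 0.47, -0.04, 0.28, 0.38, 0.37, 0.35, 0.33, 0.22, 0.21, 0.30, 0.39 and 0.45. MUP3 (YHL036W), a low-affinity methionine permease, gave 0.39, 0.32, 0.22, 0.26, 0.29, 0.26, 0.14, 0.17, 0.08, 0.12, 0.12, 0.17 and 0.18. The value of MUP1 at 20 min, -0.036, was the only one of these 52 below the reference. Mean differences were 0.37 ± 0.024 for SAM3 (2.36-fold, adjusted p = 1.86e-08), 0.36 ± 0.021 for MMP1 (2.29-fold), 0.32 ± 0.025 for MUP1 (2.08-fold) and 0.21 ± 0.013 for MUP3 (1.62-fold).

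Regulators were near the reference apart from MET28 (YIR017C). MET4 (YNL103W), the bZIP activator of the pathway, gave -0.05, -0.15, -0.05, -0.13, -0.12, -0.14, -0.13, -0.14, -0.01, -0.03, -0.13, -0.12 and -0.02, below the reference on 13 of 13 arrays. Its bZIP partner MET28 gave 0.21, 0.42, 0.08, 0.22, 0.31, 0.29, 0.33, 0.11, 0.08, 0.16, 0.10, 0.15 and 0.25, above it on 13 of 13. The zinc-finger gene MET31 (YPL038W) gave -0.09, -0.20, -0.12, -0.18, -0.09, -0.06, -0.08, -0.0011, -0.06, -0.05, -0.01, -0.0020 and -0.04. These values were below the reference throughout, closest to it from 70 min on. MET32 (YDR253C), its paralog, gave 0.11, 0.04, 0.06, 0.16, 0.14, 0.12, 0.01, 0.06, 0.12, 0.18, 0.13, 0.12 and 0.09. MET30 (YIL046W), the F-box gene, gave 0.11, 0.01, -0.09, 0.0044, 0.11, 0.13, 0.11, 0.03, -0.0084, -0.0036, 0.0051, 0.07 and 0.09. MET32 was above the reference on every array and MET30 on 10 of 13. The mean of MET28 was 0.21 ± 0.023, and the other 4 means, from -0.094 ± 0.014 for MET4 to 0.10 ± 0.010 for MET32, passed the adjusted p but not 1.5-fold.

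**Figure D2:**
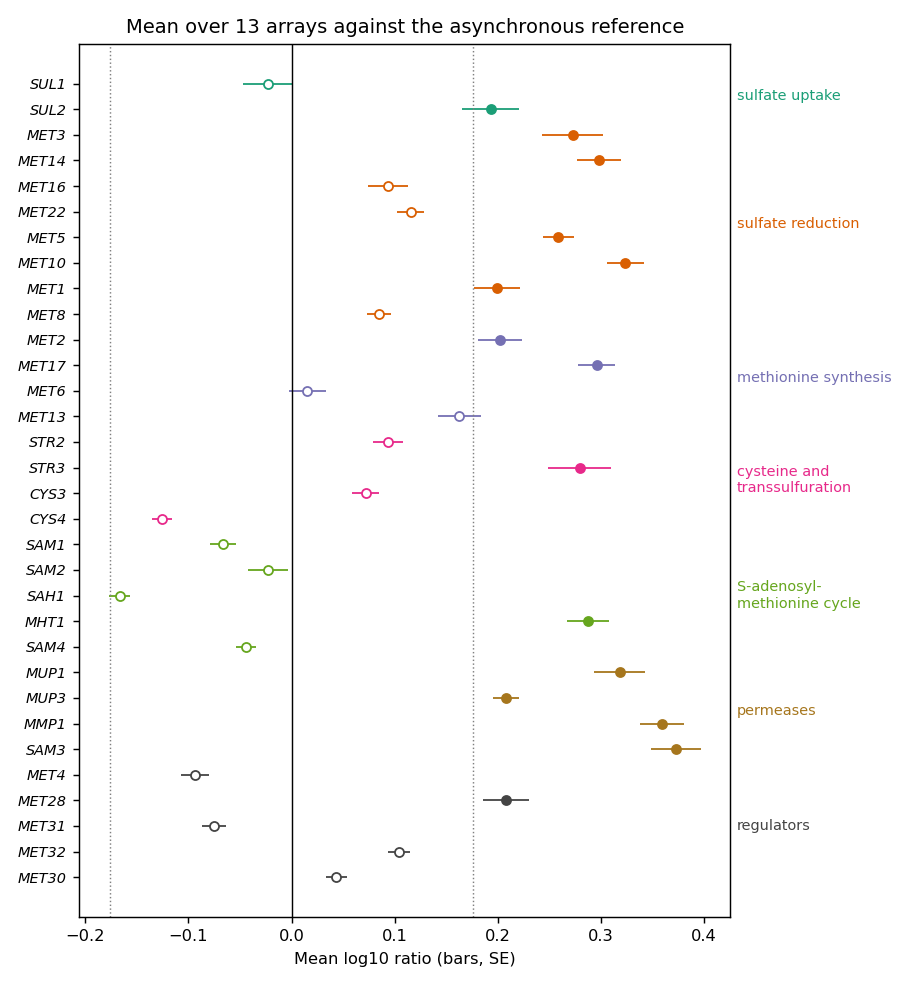
Mean log10 ratio over the course for each of the 32 genes (points, with bars of 1 SE), coloured by step, filled where the adjusted p was under 0.05 and the mean at least 1.5-fold from the reference (dotted lines). The 4 permeases and 5 of the 8 sulfate reduction genes lie beyond the right dotted line, as do genes of every other step. SAM3 lies farthest to the right at 0.37, and SAH1 and CYS4 farthest to the left at -0.17 and -0.13.

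The second comparison asked which genes changed steadily over the 2 cycles, with a linear time term fitted beside the cycle. Of the 32 genes, 8 fell (25.0%), against 1.12% of all genes tested, and 0 rose, against 1.19%. The 8 were MET3, MET14, MET5 and MET10 of sulfate reduction, MET6 and MET17 of methionine synthesis, SAM2 and the permease gene MUP3. MET3 fell by 0.28 ± 0.051 log10 units per 60 min (SE, adjusted p = 0.0159, limma), a fitted 3.70-fold over 120 min. MET14 fell by 0.21 ± 0.036 (2.67-fold, adjusted p = 0.0142). Such folds are those of the fitted line and not of the measured ends. The measured log10 ratio of MET3 was 0.45 at 0 min and 0.21 at 120 min. MET6 fell by 0.18 ± 0.031 (2.33-fold), MET17 by 0.17 ± 0.031 (2.18-fold), SAM2 by 0.14 ± 0.033 (1.94-fold), MET5 by 0.14 ± 0.026 (1.94-fold), MUP3 by 0.13 ± 0.022 (1.82-fold) and MET10 by 0.13 ± 0.031 (1.80-fold). In all, 29 of 32 fitted slopes were below 0 (90.6%), against 50.1% of all genes, and the exceptions were the regulators MET4, MET31 and MET32. Without the 0 and 10 min arrays 26 of 32 were below 0 (81.2%), against 50.5% of all genes, with MUP1 (0.057 ± 0.042), SAM3 (0.0011 ± 0.027) and MET8 (0.0084 ± 0.025) above 0 as well and none of these passing the test. The steepest slope without a call was that of STR3 (-0.21 ± 0.053, adjusted p = 0.0560).

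The mean of MET3 at 70 to 120 min was 0.079, against 0.44 at 0 to 60 min. For MET14 the corresponding means were 0.16 and 0.41, and for MET17 0.18 and 0.39. For MET6 they were -0.098 and 0.11, on opposite sides of the reference. MUP1 averaged 0.32 in both periods, and its slope did not pass the test (-0.0094 ± 0.043, adjusted p = 0.937). The course was not a straight line: the mean of the 8 sulfate reduction genes was 0.29 at 0 min, 0.41 at 10 min, 0.21 at 30 min, 0.33 at 40 min, 0.046 at 90 min and 0.18 at 120 min. Of the 32 genes, 24 had their highest value at 10 min (75%), against 13% of all genes, and 13 had their lowest at 90 min (40.6%), against 4.29% of all genes. The 10 min array had the widest spread of all genes, with an SD of 0.17 log10 units against 0.094 to 0.16 on the others, and the part of this spread in the maxima at 10 min was not tested. Without the 0 and 10 min arrays 6 members fell, all among the 8, against 71 of 6151 genes, with MET3 at -0.31 ± 0.050 and MET14 at -0.25 ± 0.038 per 60 min, and SAM2 and MUP3 lost their calls (adjusted p = 0.144 and 0.0683).

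The number that fell depended on single arrays. Leaving out the array at 40 min or at 80 min gave 4, and leaving out that at 90 min gave 5. In each of these 3 fits 14 of 6151 genes fell, against 69 with every array. Without the 120 min array 12 members fell and MET31 rose, and 135 genes fell. Across the 13 fits that leave out 1 array, MET3, MET14, MET6 and MUP3 kept their calls in each, MET5 lost its call in 2, MET17 in 3, and MET10 and SAM2 each in 11. With array weights 17 members fell and MET31 rose, and 205 genes fell.

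**Figure D3:**
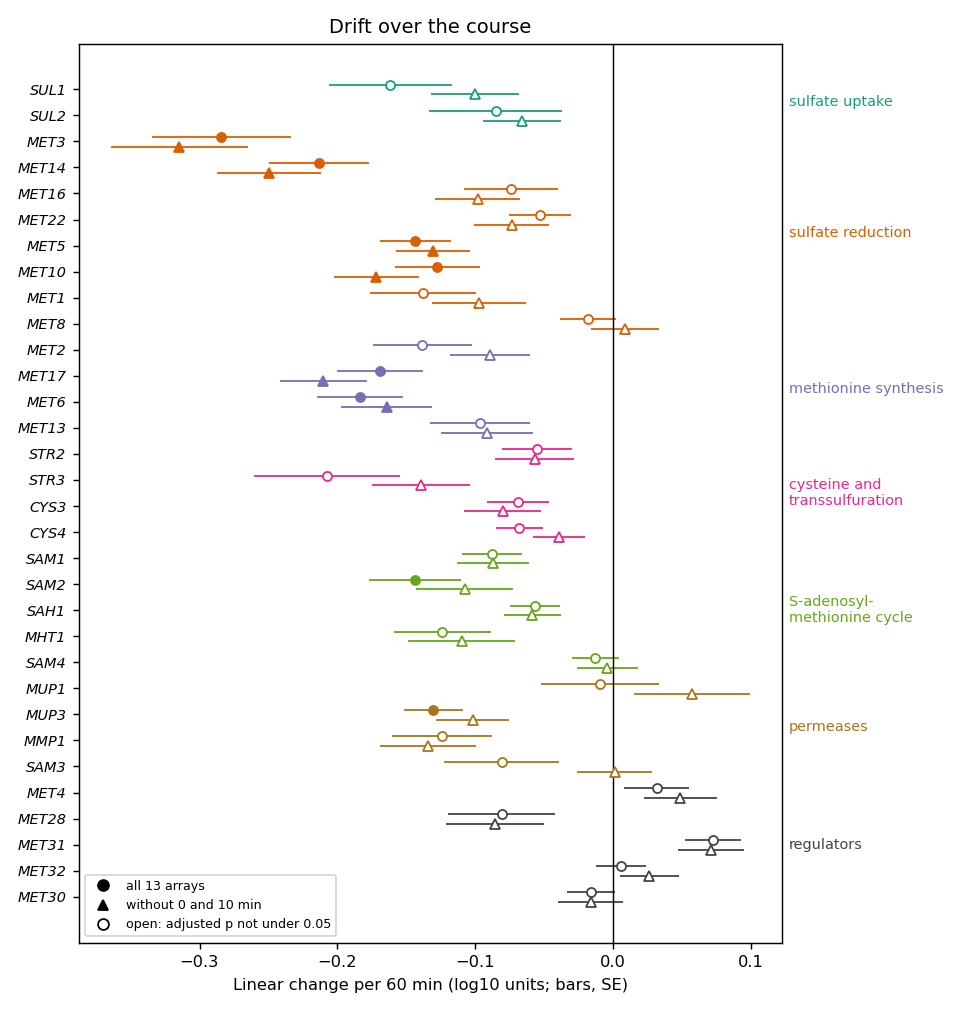
Linear change per 60 min of each of the 32 genes (log10 units, bars of 1 SE), from all 13 arrays (circles) and without the 0 and 10 min arrays (triangles), filled where the adjusted p was under 0.05. MET3 and MET14 lie farthest to the left in both fits, and in the fit of all arrays MET4, MET31 and MET32 lie to the right of 0.

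The third comparison asked whether the genes oscillated with the cell cycle, using a cosine and sine of 62 min, the period that fitted the G1/S mean best. A cycle passed the test for 6 of 32 genes (18.8%), near the 15.0% of all genes tested. They were the permease genes SAM3 and MMP1, SAM1, SAM2, CYS4 and MET30, and none of the 10 genes of sulfate uptake and reduction. SAM3 swung 2.09-fold from trough to peak (fitted peak 61.3 ± 2.32 min, SE, adjusted p = 0.0168, limma), MMP1 1.90-fold (60.5 ± 2.29 min, adjusted p = 0.0163) and SAM2 1.71-fold (60.8 ± 2.55 min, adjusted p = 0.0271). SAM1 swung 1.53-fold (60.1 ± 2.09 min), MET30 1.45-fold (52.4 ± 1.77 min) and CYS4 1.41-fold (58.4 ± 2.01 min). Their peaks lay at the end of the fitted cycle, which in phase adjoins its start at 0 min, and well away from that of the G1/S mean at 19.0 min.

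Fitted peaks of 25 of the 32 genes lay between 50 and 62 min (78.1%), against 24.7% of all genes. This count is a description, since 26 of the 32 had no cycle that passed and the peaks of such genes are loosely placed. In phase 62 min is the same as 0 min, so SAM4 (1.7 min), MET13 (2.8 min) and MET22 (3.5 min) lay just past this window. MUP1 (1.82-fold, adjusted p = 0.0564) and MET6 (1.53-fold, adjusted p = 0.0542) lay just outside the threshold, and the fitted fold of MET3 was 1.745 (adjusted p = 0.133). STR2, at 24.8 ± 4.70 min, and MET32, at 34.95 ± 3.03 min, had fitted peaks elsewhere without passing the test. MUP1 and MET30 were lowest at 20 min, SAM3 at 80 min, MMP1 at 100 min, and SAM1, SAM2 and CYS4 at 90 min.

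How the members' share stood against all genes depended on the arrays used. Without the 0 min array 11 of 32 members cycled, against 14.2% of all genes, and without the 0 and 10 min arrays 13 of 32 did, against 14.7%, so that in both fits the members' share was above the background. Without the 30 min array 3 of 32 did, against 9.66%, and with a second harmonic 1, SAM1, against 3.45%. SAM1 kept its call in each of the 22 alternatives. SAM2 lost it in 6, among them the fits without the linear time term and without the 30, 40, 90 or 120 min array. SAM3 and MMP1 lost it without the 30 min array and with a second harmonic, and CYS4 and MET30 with a second harmonic alone. Without the 0 and 10 min arrays the members called included MET3 (2.07-fold, 53.0 min, adjusted p = 0.0232), MET14 (1.73-fold, 56.1 min), STR3 (1.77-fold, 48.6 min) and MUP1 (1.75-fold, 51.5 min).

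**Figure D4:**
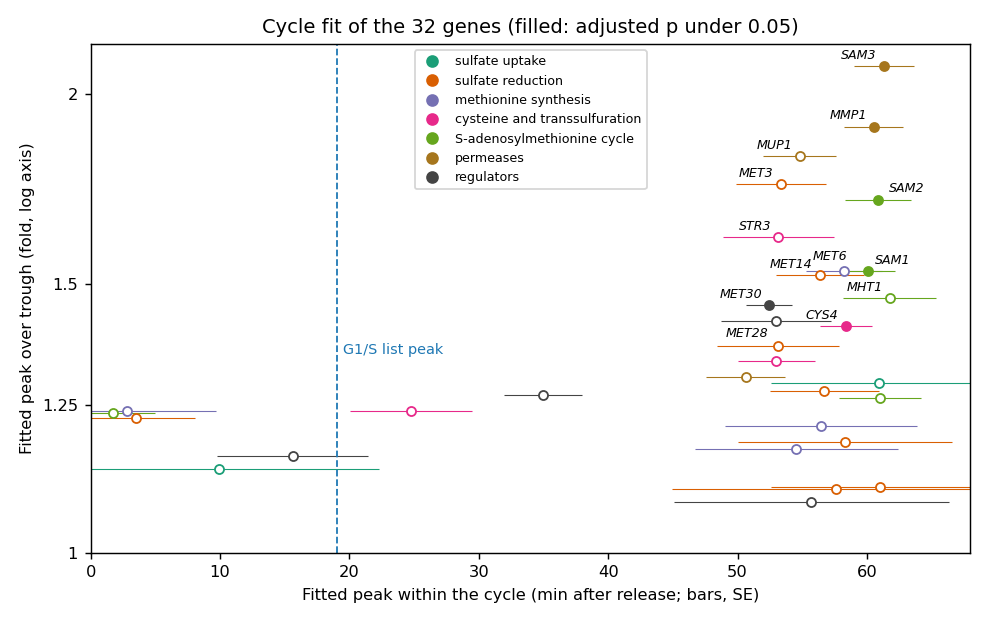
Fitted peak time within the 62 min cycle (horizontal, bars of 1 SE) and fitted peak-over-trough fold (vertical, log axis) of the 32 genes, coloured by step and filled where the adjusted p was under 0.05. The filled points lie between 52.4 and 61.3 min, and the dashed line marks the G1/S mean at 19.0 min.

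The fourth comparison set the arrested cells at 0 min against the curve through the later arrays. Of the 31 members with a value at 0 min, 0 passed (limma, adjusted p), against 1.70% of all genes (0.900% higher at 0 min), and 1, MUP3, had an unadjusted p under 0.05, against 11.6% of all genes. The fitted difference of MUP3 was 0.19 ± 0.082 log10 units (SE, adjusted p = 0.369) and that of CYS4 0.11 ± 0.052 (adjusted p = 0.446). Errors were wider for MET3 (0.11 ± 0.22) and MET14 (0.085 ± 0.16), which fell over the course, in this fit without a linear time term. Differences of that size could go uncalled there. At 0 min the members were nevertheless high against the wild-type culture, with 28 of 31 above it and 21 among the highest 10% of all genes. Their median log10 ratio there was 0.21, against -0.00019 over all genes, whose median the centring sets near 0. At 10 min 22 of 32 were among the highest 10%, with a median log10 ratio of 0.31. At 90 min 11 of 32 were, with a median of 0.051.

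Likeness of profile varied within the pathway, and differences between its steps were not tested. Over the 13 arrays, which all genes share, the median Pearson r between pairs was 0.83 among the 4 methionine synthesis genes (6 pairs), 0.76 among the 8 sulfate reduction genes (28 pairs), 0.70 among 4 genes of the S-adenosylmethionine cycle, 0.64 among the permeases, 0.54 among the genes of the cysteine branch and 0.052 among the 5 regulators (10 pairs). It was 0.60 over the 406 pairs of the 29 members with every value, and 0.0041 over all pairs of 5674 genes. Single pairs went as low as 0.044 in sulfate reduction and 0.054 in the cysteine branch. Among the regulators they ran from -0.545 to 0.56, and over all 406 pairs from -0.795 to 0.975. MMP1 and MHT1, which carry S-methylmethionine in and use it, are neighbours in the gene order of assembly R64 and had r = 0.94 over 12 arrays. SAM3 and SAM4 are also neighbours, and there r was 0.59 while the log10 ratio of SAM3 was 0.42 above that of SAM4 on average. The paralogs SAM1 and SAM2 had r = 0.89, and the paralogs MET31 and MET32 r = 0.15.

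**Figure D5:**
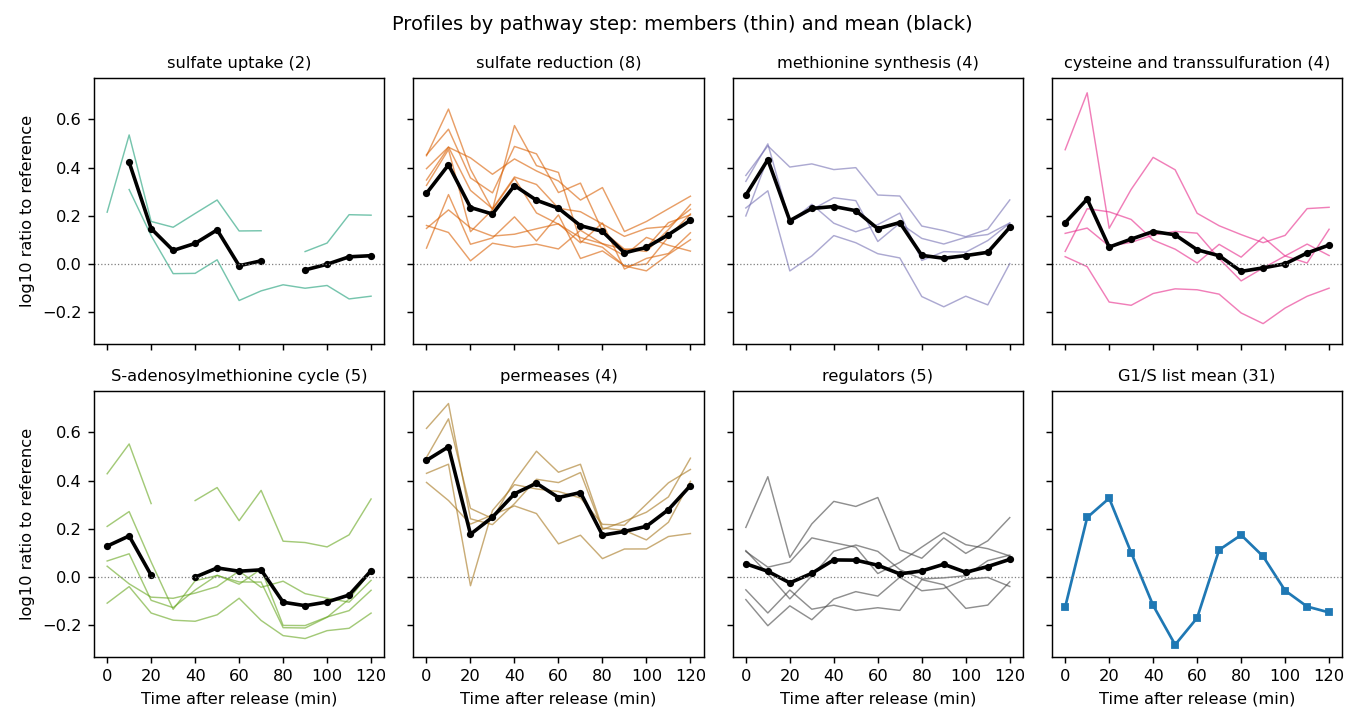
Log10 ratio to the asynchronous reference against time after release for the members of each step (thin lines) and their mean (black, left out where a member has no value), with the mean of 31 G1/S genes in the last panel. The enzyme and permease means are highest at 10 min, and the mean of the 5 regulators stays between -0.024 and 0.073.

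A further 24 genes of sulfur and one-carbon metabolism, listed with earlier results of these arrays known, had means between -0.083 and 0.23. Of these, 2 (8.33%) were higher by at least 1.5-fold, against 2.63% of all genes: SSU1, the sulfite export pump (mean 0.23 ± 0.036, SE), and SHM2, the cytosolic serine hydroxymethyltransferase (0.19 ± 0.023). SSU1 fell by 0.27 ± 0.063 log10 units per 60 min (adjusted p = 0.0429, limma), and MXR1, a methionine sulfoxide reductase, fell by 0.10 ± 0.022 (adjusted p = 0.0336). The fall of SSU1 was an early one and not steady. Its values were 0.51, 0.77, 0.58, 0.35 and 0.18 from 0 to 40 min and between 0.025 and 0.11 from 50 min on. It averaged 0.36 at 0 to 60 min and 0.080 at 70 to 120 min. UTR4, of the methionine salvage pathway, rose by 0.096 ± 0.022 (adjusted p = 0.0429). The 2 that fell were 8.33% of the 24, against 1.12% of all genes, and the 1 that rose 4.17%, against 1.19%. A cycle passed for MXR1 (1.48-fold, peak 58.6 min), the glutathione and oligopeptide transporter gene OPT1 (1.53-fold, 60.0 min) and MRI1 of methionine salvage (1.29-fold, 56.5 min), 3 of 24 or 12.5%, under the 15.0% of all genes. Of the 24, 0 passed the arrest test (limma, adjusted p), against 1.70% of all genes, and 1, MEU1 of methionine salvage, named after its values were seen, had an unadjusted p under 0.05, against 11.6%. CBF1, the DNA-binding partner of Met4, averaged 0.042 ± 0.014, which passed the adjusted p (0.0142, limma) but not the fold minimum, and it passed no other test.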

How the data were processed

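One table of processed two-colour array values was analysed, in which Cy5 is the time-point RNA and Cy3 the asynchronous wild type, per the labels. The deposited values are log10 ratios by inference: 18 values sit at a size of exactly 2 and the largest other value is 1.614. The authors' background correction, normalisation and filters were not given in the sources used here. Of 6217 rows, 12 controls were left out. Values of size 2 were set to missing, and the median of each array was subtracted. The 6151 genes that had 10 or more of 13 values were fitted with limma 3.58.1 in R 4.3.3 (lmFit, eBayes) with terms for the mean, a cosine and sine, and linear time, the period being that between 50 and 80 min which best fitted the G1/S mean. The arrest fit had a term for the 0 min array and no linear time. Two-sided p-values were adjusted over all genes (Benjamini-Hochberg), with a threshold of 0.05. The fits were tested on simulated data with independent normal errors and effects of the fitted shapes. That test does not cover courses of another shape or errors shared by successive arrays. Symbols came from RefSeq assembly R64 by locus tag (32 of 32 members, 5704 of 6205 rows). Members, lists and tests were chosen with earlier results of these data known. All members were available to be named. Values on all arrays are printed for up to 10 members called per test, smallest adjusted p first, and for the regulators. Other pathway genes are named where called, with CBF1 added after its values were seen. Likeness in profile was Pearson r with the mean of the 8 uptake and reduction genes that had every value, which leaves out both uptake genes.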

Additional observations from a re-analysis of the deposited data

How the results depend on the processing

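Alternatives were the deposited values without centring, array weights, genes with all 13 values, values at the limit kept, a period of 60 min, other time terms, and leaving out each array in turn. The count of members apart from the wild type stayed between 13 and 15 in those run, was 29 (23 higher, 6 lower) by the adjusted p alone, and was 0 if the values were log2, an option added after seeing the data, as were a period of 63 min (6 cycling members) and the fit of the mean without the 0 and 10 min arrays (13). With 1 array left out it was 15 in each fit, and SAH1 was 1 of these, lower by 1.5-fold, without the 10 min array and without both the 0 and 10 min arrays. Members with a linear change numbered 8 (against 2.31% of all genes, the later percentages likewise), 18 with array weights (5.80%), 4 to 13 with 1 array left out (0.536% to 3.64%), and 6 without the first 3 arrays (1.67%, also added later). Members with a cycle numbered 6 (against 15.0% of all genes), 13 with array weights (24.9%), 1 with a second harmonic (3.45%), 13 without the 0 and 10 min arrays (14.7%) and 3 to 11 with 1 array left out (7.90% to 16.0%). The arrest count stayed at 0 in each alternative run for it, which did not include a second harmonic, a period of 63 min or leaving out the 0 min array. No called value turned in sign, whereas the slopes of MUP1, SAM3 and MET8, none of them called, turned without the 0 and 10 min arrays. The cause of these shifts was not tested. No paired analysis was possible because each time point holds 1 sample. Signal over background is unknown, so dim spots cannot be told from bright ones.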

Other observations

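Some genes on neither gene list followed the profile of sulfate reduction closely. Taking the mean of the 8 sulfate reduction genes over the 13 arrays, the 10 genes most like it outside both gene lists had Pearson r from 0.82 to 0.90, as a description over arrays that all genes share. SER33, a phosphoglycerate dehydrogenase of serine synthesis, came first (r = 0.90), followed by BDS1, a sulfatase (0.89), VTC3, of the vacuolar polyphosphate polymerase (0.89), SKA1 (0.87), ARO3, of aromatic amino acid synthesis (0.85), and RMD6 (0.85). The phosphate transporter gene PHO89 (0.84), the mediator subunit gene SSN2 (0.83), the uracil permease gene FUR4 (0.82) and YFL057C (0.82) completed the 10. Levels differed where profiles were alike: PHO89 averaged -0.38 ± 0.033 (SE) against the wild type, and SER33 0.10 ± 0.013. These genes were picked for likeness to a falling profile on the same arrays, so their slopes are a description and not a test. PHO89 fell by 0.299 ± 0.056 log10 units per 60 min, VTC3 by 0.11 ± 0.021 and SKA1 by 0.087 ± 0.019. SER33 had a slope of -0.088 ± 0.022.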
